A study of Rattus norvegicus with 9 samples.

Results

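A set of 7 genes of the B cell was followed in rat liver: Cd79a, Cd79b, Cd22, Ms4a1, Blnk, Pax5 and Ltb. They were looked up on the array by the RefSeq accession of each probe, and 4 of the 7 were found, among 13438 genes with a named probe. These were Cd79b (gene ID 171055), Blnk (499356), Ltb (361795) and Cd22 (308501), the last with 2 probes. Cd79a, Ms4a1 and Pax5 matched no probe.

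Liver RNA came from 9 male Wistar rats, 1 one-colour Agilent array per rat, in 3 groups of 3: untreated controls, rats exposed to 6.5 Gy of total-body gamma irradiation at 2 Gy/min (TBI), and rats given Hong Shan Capsule by mouth before the same exposure (HSC + TBI). Hong Shan Capsule is a preparation of medicinal herbs, given for 3 days, and the sources state its dose both as 10 g/kg/day and as 30 mg/kg/day. Livers were taken 24 h after exposure, and no group received HSC without irradiation. The rats of a group were separate animals, and each array measured whole liver, in which all cell types are mixed.

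A B cell senses antigen through surface immunoglobulin, which signals through the paired chains encoded by Cd79a and Cd79b. Spleen tyrosine kinase then phosphorylates the adaptor encoded by Blnk, which gathers the enzymes of the calcium response, while the inhibitory receptor Cd22 restrains the signal. Ms4a1 encodes the surface protein CD20, and Pax5 encodes the transcription factor that holds cells in the B lineage. Ltb encodes lymphotoxin beta, a membrane-bound cytokine by which B cells, and also T cells and natural killer cells, maintain lymphoid stroma. Circulating B cells are sensitive to radiation, and the liver holds few of them.

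Promoters were at hand for 4 of the 7 genes, and those of the 3 genes that were both on the array and in the promoter table are printed because the expression values below belong to these genes. Each runs from 250 bases before to 50 bases after the RefSeq start of the gene in assembly GRCr8, 5′ to 3′ along the gene. The promoters of Blnk (chr1:249770484-249770783, minus strand), Cd22 (chr1:95259681-95259980, minus strand) and Ltb (chr20:3634005-3634304, minus strand) are given in lower case, with the motifs found in capitals.
Blnk: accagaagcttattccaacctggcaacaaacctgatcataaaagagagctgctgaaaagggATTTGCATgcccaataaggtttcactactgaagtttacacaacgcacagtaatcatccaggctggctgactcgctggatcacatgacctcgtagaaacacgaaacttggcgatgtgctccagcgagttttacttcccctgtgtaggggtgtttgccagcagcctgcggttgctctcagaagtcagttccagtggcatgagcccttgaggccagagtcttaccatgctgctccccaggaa
Cd22: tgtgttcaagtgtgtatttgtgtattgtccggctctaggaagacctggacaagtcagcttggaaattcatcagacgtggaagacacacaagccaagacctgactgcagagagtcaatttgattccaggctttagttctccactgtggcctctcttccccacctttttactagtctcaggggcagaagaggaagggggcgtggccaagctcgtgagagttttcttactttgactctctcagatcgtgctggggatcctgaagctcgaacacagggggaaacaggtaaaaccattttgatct
Ltb: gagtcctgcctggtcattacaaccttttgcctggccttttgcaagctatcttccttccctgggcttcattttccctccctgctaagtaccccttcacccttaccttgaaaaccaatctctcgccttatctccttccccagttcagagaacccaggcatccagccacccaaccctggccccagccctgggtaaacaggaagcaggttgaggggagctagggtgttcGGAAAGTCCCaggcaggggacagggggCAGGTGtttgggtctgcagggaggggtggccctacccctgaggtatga

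In all, 5 motifs were searched on both strands: the octamer ATGCAAAT, the EBF palindrome, the PU.1 site GAGGAAGT, the NF-kB decamer and the E-box CAGGTG. None of these overlaps another in the 3 printed windows. The Blnk promoter held the octamer at -189 from the start, on the opposite strand, a motif found in 1.64% of 27457 rat promoters of the same length. The Ltb promoter held the NF-kB decamer at -25, on the opposite strand, found in 0.371% of promoters, and the E-box at 3, found in 18.7%. The Cd22 window held none of the 5 motifs, of which the EBF palindrome stood in 0.841% and the PU.1 site in 2.44% of all promoters. These matches are of letters only.

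Values below are log2 of the processed spot signal after quantile normalization, and differences are between group means on that scale. Testing was limited to the 25369 probes that were well above background throughout 1 or more groups. A probe was called where its groups differed by 1.5-fold or more and limma's p, adjusted by Benjamini-Hochberg, was below 0.05. The 5 probes of the 4 genes all passed this filter. The share of probes above background was 56.6% to 59.3% on control arrays, 63.6% to 69.5% on TBI arrays and 58.7% to 60.5% on HSC + TBI arrays. Controls lay on 1 slide, TBI rats on another, and HSC + TBI rats on 2 more, so slide and group cannot be told apart. In bulk liver, fewer B cells and less RNA per B cell cannot be told apart either. With 3 rats a group, an exact two-sided permutation test cannot give a p under 0.1.

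Cd79b, the signalling chain of the B cell receptor, fell after irradiation with and without HSC. Its log2 signal was 6.08, 4.80 and 4.60 in the control rats, 1.99, 2.14 and 2.59 in the TBI rats, and 1.91, 1.78 and 2.02 in the HSC + TBI rats. Every control rat lay above every irradiated rat, and the probe was well above background on the 3 control arrays and on none of the 6 others. Cd79b therefore entered the test through the control group alone, which meant that it had to be lower elsewhere. The difference of TBI from control was -2.91 (SE 0.35, adjusted p = 0.00316), with group means of 2.24 ± 0.31 and 5.16 ± 0.80 (SD, n = 3). Set against the dimmest signal that still counted as above background on each TBI array, or the probe's own signal where higher, the control level was at least 4.97-fold higher. The difference of HSC + TBI (1.90 ± 0.12, SD, n = 3) from control was -3.25 (SE 0.35, adjusted p = 0.00261), and the bound set in the same way was at least 2.90-fold. The second bound is the smaller one because the dimmest signal above background was higher on HSC + TBI arrays than on TBI arrays (3.62 against 2.84 in these bounds, log2). TBI and HSC + TBI rats were both below background, so no fold between them is given.

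Cd79b was called against control with any 1 of the 9 rats left out, at -3.19 to -2.45 for TBI and -3.54 to -2.81 for HSC + TBI. These calls carry the limit given above. The probe passed the filter through the control group alone, and its values in irradiated rats were below background. After normexp background correction, which adds an offset of 50 to each signal, the differences were -0.32 (adjusted p = 0.0684) and -0.38 (adjusted p = 0.0533) and neither was called.

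Blnk, the adaptor below the receptor, was not called in any comparison, and was near background in several irradiated rats. Its log2 signal was 4.70, 4.42 and 4.31 in control rats, 2.75, 4.05 and 5.21 in TBI rats, and 3.58, 4.06 and 2.94 in HSC + TBI rats. The TBI rats spanned both sides of the controls, while all 3 HSC + TBI rats lay below the controls. The probe was above background on 3 control, 2 TBI and 1 HSC + TBI arrays. The difference from control was -0.47 for TBI (95% interval -1.72 to 0.78, adjusted p = 0.627) and -0.95 for HSC + TBI (-2.20 to 0.30, adjusted p = 0.384). HSC + TBI differed from TBI by -0.48 (-1.72 to 0.77, adjusted p = 0.705).

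Cd22, the inhibitory receptor, was not called in any comparison, and its mean was higher in TBI rats than in control rats. Its brighter probe gave 7.03, 7.06 and 7.13 in control rats, 7.22, 7.69 and 7.93 in TBI rats, and 6.96, 6.87 and 6.97 in HSC + TBI rats, above background on all 9 arrays. The TBI rats were the highest 3 of the 9, and the HSC + TBI rats the lowest 3. TBI differed from control by 0.54 (95% interval 0.15 to 0.94, adjusted p = 0.0898), HSC + TBI from control by -0.14 (-0.53 to 0.25, adjusted p = 0.702), and HSC + TBI from TBI by -0.69 (-1.08 to -0.29, adjusted p = 0.116). TBI 1 decided the first and the last: without it they were 0.74 (adjusted p = 0.0176) and -0.88 (adjusted p = 0.0144), both called.

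The second Cd22 probe gave 4.27, 5.10 and 5.15 in control rats, 4.89, 5.36 and 5.86 in TBI rats, and 5.15, 4.80 and 4.82 in HSC + TBI rats. Its groups overlapped in each comparison. It differed by 0.53 (adjusted p = 0.303) for TBI against control, by 0.09 (adjusted p = 0.907) for HSC + TBI against control and by -0.44 (adjusted p = 0.502) for HSC + TBI against TBI. Over the 9 arrays the 2 probes had Pearson's r of 0.77 and Spearman's rho of 0.63, a description of arrays that share their groups.

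Ltb, the cytokine, fell in the HSC + TBI rats. Its log2 signal was 9.19, 9.79 and 8.64 in control rats, 8.05, 9.16 and 8.73 in TBI rats, and 7.77, 7.45 and 7.60 in HSC + TBI rats, above background on all 9 arrays. The control and TBI rats overlapped, and all 3 HSC + TBI rats lay below both. HSC + TBI (7.61 ± 0.16, SD, n = 3) was 3.03-fold below control (9.21 ± 0.57), a difference of -1.60 (SE 0.34, 95% interval -2.36 to -0.83, adjusted p = 0.0409). TBI (8.65 ± 0.56) differed from control by -0.56 (-1.32 to 0.21, adjusted p = 0.336), and HSC + TBI from TBI by -1.04 (-1.81 to -0.27, adjusted p = 0.187). The call of Ltb for HSC + TBI against control was near the threshold: leaving out control 1 or 2, TBI 3, or any HSC + TBI rat moved the adjusted p past 0.05 (0.0548 to 0.134), while the difference stayed between -1.68 and -1.31. The call was also lost with no filter on dim probes (adjusted p = 0.0858) and with the replicate number as a block (adjusted p = 0.0555).

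**Figure D1:**
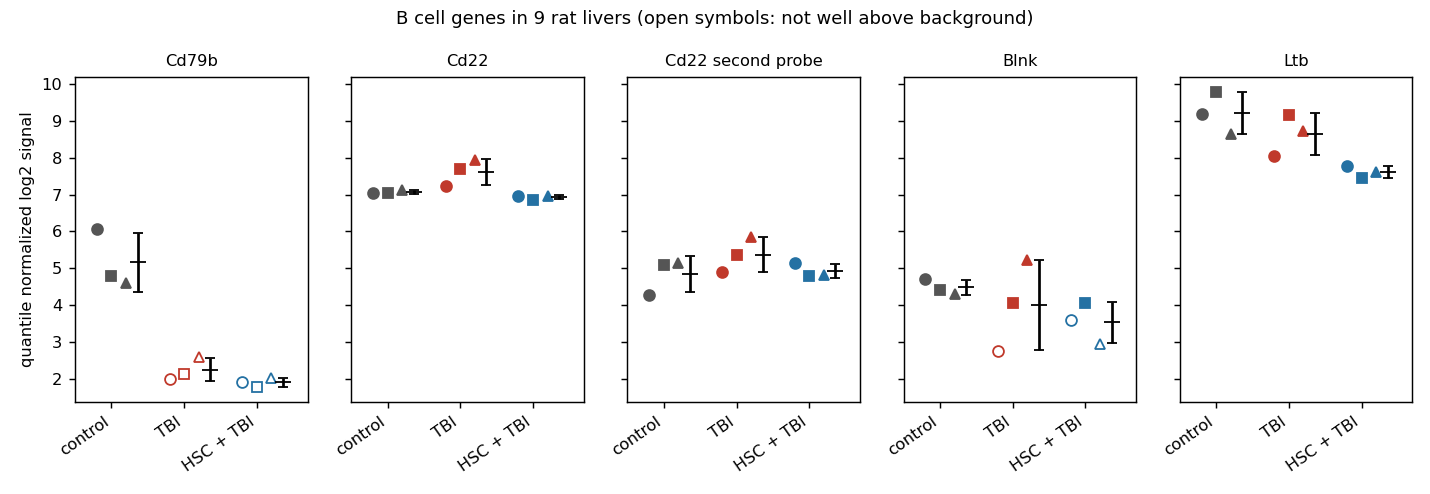
Log2 signal (vertical axis) of the 5 probes of the B cell genes in each rat, by group. Symbols are rats 1 to 3 of a group, open where the probe was not well above background, and bars are the group mean ± SD; Cd79b is above background in the 3 control rats alone, while all 3 HSC + TBI rats lie below the other groups for Ltb.

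Counted by gene, 1 of the 4 tested genes (Cd79b) was called lower in TBI against control, where 7.26% of all tested probes were called, 3.73% lower and 3.53% higher. In HSC + TBI against control, 2 of the 4 (Cd79b and Ltb) were called lower, where 3.24% of all tested probes were called, 2.05% lower and 1.19% higher. In HSC + TBI against TBI, limma called 0 of the 4, where 0.796% of all tested probes were called, 0.564% lower and 0.233% higher, while Cd22 and Ltb had an unadjusted p under 0.05. Over all tested probes, an unadjusted p under 0.05 was found for 25.4%, 19.6% and 16.3% in the order of these comparisons, and 50.8%, 43.5% and 41.1% of the differences were negative. Without overlap between rats, 1 of the 4 was lower (Cd79b) and 1 higher (Cd22) in TBI than in control, where 15.6% and 13.2% of tested probes were. All 4 tested genes were lower without overlap and 0 higher in HSC + TBI than in control, against 13.6% and 18.0% of tested probes. For Cd22 that difference was -0.14, and its second probe overlapped, at 0.09. In HSC + TBI against TBI 2 of the 4 (Cd22 and Ltb) were lower without overlap and 0 higher, against 8.62% and 12.9% of tested probes. Cd79b and Blnk were above background on all 3 arrays of the control group alone, so their places in these counts were partly set by the filter. For HSC + TBI against TBI the scaling mattered over the whole array: of the called probes 29.2% were higher after quantile normalization, and 13.7% after a shift to each array's 75th percentile. The median difference of the 4 genes was -0.52, -1.27 and -0.58 in the order of these comparisons, against -0.01, 0.05 and 0.06 over all tested probes. The 3 comparisons share groups, so their values are given side by side only.

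**Figure D2:**
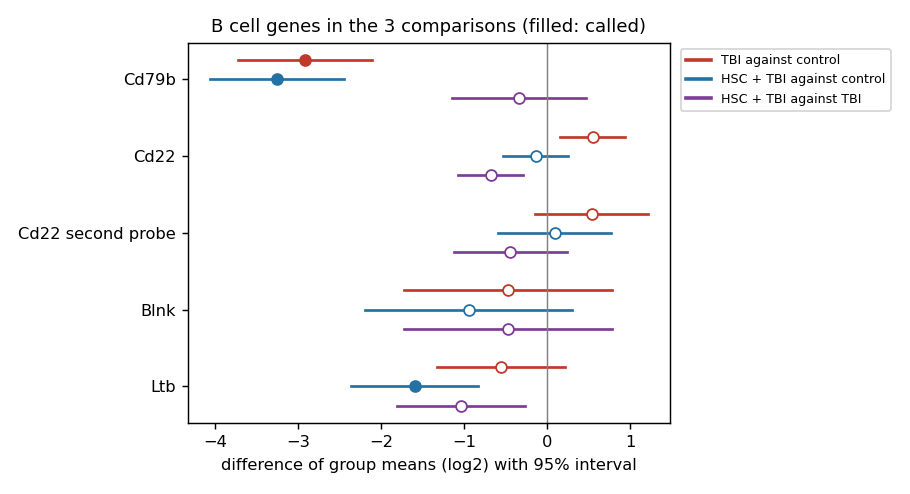
Difference of group means (log2, horizontal axis) with its 95% interval for each probe of the B cell genes in the 3 comparisons, filled where called. Cd79b lies at -2.91 and -3.25 against control, Ltb at -1.60 for HSC + TBI against control, and no probe is filled for HSC + TBI against TBI.

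Other genes of the B lineage, the B cell receptor pathway and the lymphotoxin axis numbered 55 in the list, of which 39 had a named probe and 23 were tested. No listed gene was called higher in any comparison. In TBI against control 3 of 23 were called lower, against 3.73% of all tested probes, and in HSC + TBI against control 4 of 23, against 2.05%. In HSC + TBI against TBI limma called 0 of 23, against 0.796% of all tested probes. Of the 23, 14 had an unadjusted p under 0.05, as did 16.3% of all tested probes. The median difference of the 23 was -0.03, -0.50 and -0.59 in the same order. Of the 39, 9 were above background on none of the 9 arrays, among them Cr2, a complement receptor of mature B cells.

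Among surface and coreceptor genes, 4 of 9 matched genes were tested. Fcmr, which encodes the Fc receptor for IgM, was 7.66, 7.01 and 6.72 in control rats, 3.49, 3.48 and 3.29 in TBI rats, and 3.78, 4.02 and 3.54 in HSC + TBI rats. Every irradiated rat lay below every control rat. The difference from control was -3.71 for TBI (13.1-fold, adjusted p = 0.000178) and -3.35 for HSC + TBI (10.2-fold, adjusted p = 0.000296), where the probe was above background on 1 of 3 arrays. Fcrla, an Fc receptor-like protein kept inside B cells, was 5.97, 6.30 and 6.28 in control rats, 3.92, 5.73 and 5.27 in TBI rats, and 3.37, 3.85 and 2.14 in HSC + TBI rats. It was called for HSC + TBI against control alone (-3.06, adjusted p = 0.0183, above background on 1 of 3 HSC + TBI arrays). Its difference was -1.21 for TBI against control (adjusted p = 0.188) and -1.85 for HSC + TBI against TBI (adjusted p = 0.148).

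Among transcription factors, 3 of 7 matched genes were tested. Pou2af1, the B cell coactivator of octamer-binding factors, was 7.26, 6.68 and 6.46 in control rats, 4.93, 4.92 and 5.08 in TBI rats, and 4.36, 4.94 and 4.25 in HSC + TBI rats. The irradiated rats lay below all controls, with a difference of -1.82 for TBI (adjusted p = 0.00432) and -2.29 for HSC + TBI (adjusted p = 0.00214). A second, dimmer probe of Pou2af1 went the other way, by 1.10 (adjusted p = 0.305) and 0.93 (adjusted p = 0.457). Bcl6, the repressor of the germinal centre, which hepatocytes also express, was 12.83, 11.69 and 12.47 in control rats, 9.05, 11.57 and 8.58 in TBI rats, and 12.55, 12.31 and 12.81 in HSC + TBI rats. All 3 TBI rats lay below the other 6, with differences of -2.60 from control (adjusted p = 0.0548) and of 2.82 for HSC + TBI against TBI (adjusted p = 0.110), neither called.

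The 9 tested kinases and adaptors of the receptor (Btk, Lyn, Syk, Plcg2, Bank1, Vav1, Pik3ap1, Prkcb and Dapp1) included 0 called genes in each comparison. Of all tested probes, 7.26% were called in TBI and 3.24% in HSC + TBI against control, and 0.796% in HSC + TBI against TBI. In TBI against control 2 of the 9 differences were negative, with a median of 0.29 and 1 gene at an unadjusted p under 0.05 (25.4% of all tested probes). All 9 were negative in HSC + TBI against control, with a median of -0.64 and 3 genes at an unadjusted p under 0.05, where 43.5% of all tested probes were negative and 19.6% had such a p. They were also all negative in HSC + TBI against TBI, with a median of -0.98 and 8 genes at an unadjusted p under 0.05, where 41.1% of all tested probes were negative and 16.3% had such a p. Myeloid cells also use most of these kinases and adaptors. Immunoglobulin and recombination genes had 4 matched members, 0 of which were tested, and 2 survival and homing receptors, Cxcr4 and Ccr7, were tested and not called.

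In the lymphotoxin axis, to which Ltb belongs, 5 genes were tested. Cxcl13, a chemokine of follicular stroma that draws B cells, was 7.92, 9.07 and 9.09 in control rats, 7.51, 7.02 and 7.27 in TBI rats, and 7.42, 7.11 and 6.73 in HSC + TBI rats. All irradiated rats lay below all controls, with a difference of -1.43 for TBI (adjusted p = 0.0334) and -1.61 for HSC + TBI (adjusted p = 0.0361). Ltbr, the receptor for lymphotoxin, differed by -0.04 for TBI (95% interval -0.34 to 0.26, adjusted p = 0.880) and 0.08 for HSC + TBI (-0.22 to 0.38, adjusted p = 0.788) against control. Its range over the 9 rats was 10.25 to 10.64. For Nfkb2, which acts below this receptor, the brightest probe was not called, and another probe was called lower in HSC + TBI against TBI (-1.21, adjusted p = 0.0357).

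**Figure D3:**
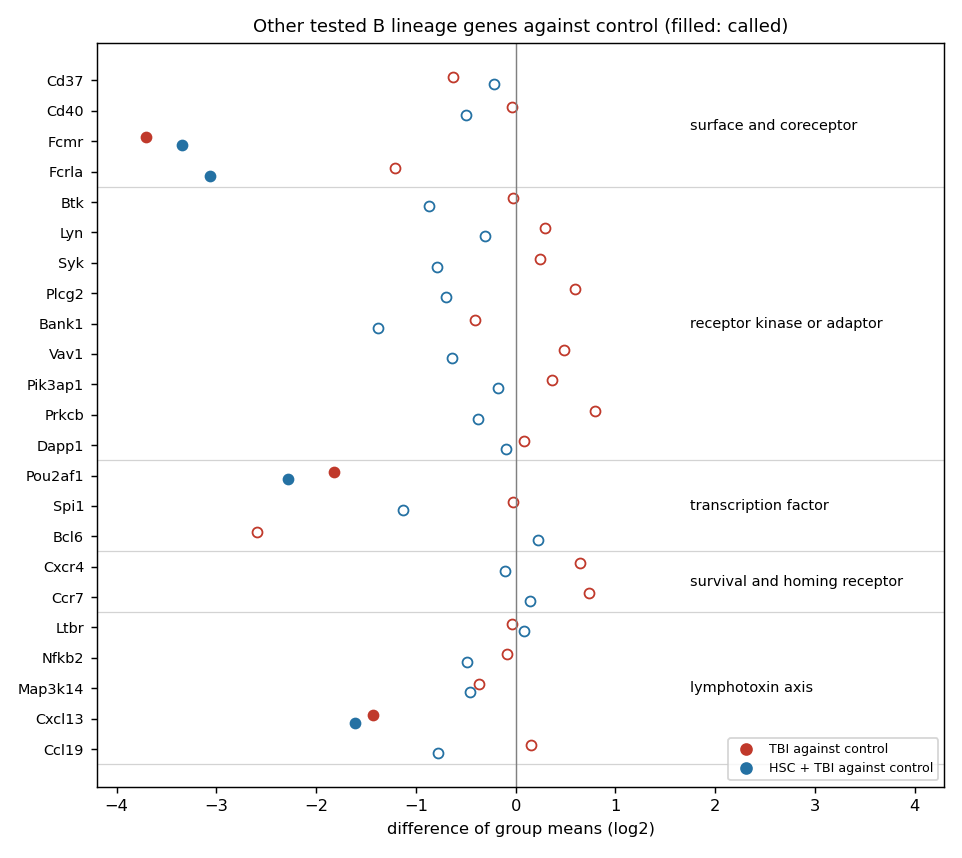
Difference from control (log2, horizontal axis) of the 23 other tested B lineage genes, by role, for TBI and for HSC + TBI, filled where called. Fcmr lies furthest to the left at -3.71 and -3.35, and no filled point lies right of 0.

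Marker genes of other cell types were measured on the same arrays, and their part in the values above was not tested. Of 9 tested T cell markers, 3 were called lower in TBI (Cd2 at least 5.13-fold, Cd3g with a difference of -3.60 and Lat with -1.08) and 3 in HSC + TBI against control (Cd3g at least 11.3-fold, Zap70 with a difference of -1.62 and Lat with -1.23). Over all tested probes, 3.73% were called lower in TBI and 2.05% in HSC + TBI against control. Cd2 and Cd3g were above background throughout the control group alone, so the filter let them in only where control was high. Of the 9, 6 differences were negative in TBI and 8 in HSC + TBI against control, where 50.8% and 43.5% of all tested probes were. Cd8b differed by 0.78 in TBI against control (adjusted p = 0.105). In HSC + TBI against TBI, where 0.564% of all tested probes were called lower and 0.233% higher, Cd8b was called lower (-1.57, adjusted p = 0.0431). Cd2 was called higher there (adjusted p = 0.0310), but it was above background on no TBI array and on 1 of 3 HSC + TBI arrays, so no fold is given. Cd3d, the brightest of the T cell list, differed by -0.79 (adjusted p = 0.147) and -0.76 (adjusted p = 0.212) against control. Cd3e was above background on no array. The summed signal of the 12 matched T cell markers was 834 to 1210 in control rats, 549 to 791 in TBI rats and 456 to 555 in HSC + TBI rats, without overlap between control and irradiated rats. The summed signal of the 4 B cell genes was 583 to 1066, 425 to 802 and 312 to 359 in the same order. Ltb, the brightest of the 4 in every rat, weighs most in this linear sum, and T cells and natural killer cells also express it.

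Called probes made up 7.26% of all tested probes in TBI and 3.24% in HSC + TBI against control. In HSC + TBI against TBI they made up 0.796%. At these shares, 0 calls in a short list does not show that the list was unchanged. Natural killer and cytotoxic markers, which include Gzma and Nkg7, had 0 of 6 tested genes called in each comparison. Their summed signal was 1947 to 4396 in control rats, 1181 to 3849 in TBI rats and 717 to 1279 in HSC + TBI rats, so all HSC + TBI rats lay below controls. All 6 had an unadjusted p under 0.05 for HSC + TBI against control, as did 19.6% of all tested probes. The T cell, Kupffer cell, plasmacytoid dendritic cell and red cell sums of all HSC + TBI rats lay below controls too. Kupffer cell and macrophage markers, led by Clec4f and C1qb, had 0 of 10 called in each comparison. Their summed signal was 91442 to 141755, 95799 to 178139 and 66785 to 72694 in the same order. All 10 were lower in mean in HSC + TBI than in TBI (median -0.96), and 9 of the 10 had an unadjusted p under 0.05, as did 16.3% of all tested probes. Neutrophil markers, with S100a9 and S100a8 the brightest, had 0 of 4 called in each comparison.

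Of 4 tested plasma cell markers, Tnfrsf17, a survival receptor of plasma cells, was 6.09, 4.97 and 4.66 in control rats, 4.31, 3.17 and 2.30 in TBI rats, and 2.66, 1.93 and 1.38 in HSC + TBI rats, where it was above background on no array. It was called in HSC + TBI against control, at least 3.07-fold lower (adjusted p = 0.0200), and not in TBI against control (-1.98, adjusted p = 0.0683). It too was above background throughout the control group alone, so it passed the filter only where control was high. Sdc1 and Prdm1, the brightest of that list, were not called. Mzb1, the other tested marker, was not called either, at -1.42 in TBI (adjusted p = 0.0641) and -1.75 in HSC + TBI (adjusted p = 0.0516) against control. All irradiated rats lay below all control rats for Mzb1, which also passed the filter through the control group alone. Of the 4 differences, 2 were negative in TBI and 3 in HSC + TBI against control, where 50.8% and 43.5% of all tested probes were. The summed signal of the 4 plasma cell markers was 8807.4 to 12218.6 in control, 8463.5 to 11502.5 in TBI and 11621.4 to 13768.1 in HSC + TBI rats. Sdc1, with group means of 13.26, 13.28 and 13.60 (log2) in the same order, makes up most of this linear sum. The sum therefore says little about Tnfrsf17 and Mzb1. Irf7, an interferon-driven factor of plasmacytoid dendritic cells that many cells induce, was called lower in TBI (-2.26, adjusted p = 0.0197) and in HSC + TBI (-2.96, adjusted p = 0.0111) against control, and Bst2 was not called. Red cell markers (4 tested, Hbb and Alas2 the brightest) and endothelial markers (5 tested, Kdr and Lyve1 the brightest) had 0 genes called in each comparison. All tested probes were called at 7.26%, 3.24% and 0.796%. The endothelial sum was 12633 to 15573 in control, 16596 to 20465 in TBI and 15401 to 17147 in HSC + TBI rats. Lyve1 was 1.45-fold higher in TBI than in control (adjusted p = 0.0476), short of the 1.5-fold minimum. Another Lyve1 probe differed by 0.43 (adjusted p = 0.180). Of the 4 red cell markers, 3 had an unadjusted p under 0.05 against control in TBI and 3 in HSC + TBI. Over all tested probes the shares with such a p were 25.4% and 19.6%. In TBI the 3 were Hbb, Ahsp and Slc4a1, and Slc4a1 was higher than in control (1.53, adjusted p = 0.113). Slc4a1 differed from control by 0.63 in HSC + TBI (adjusted p = 0.560). Hbb differed from control by -1.30 in TBI (adjusted p = 0.122) and by -1.59 in HSC + TBI (adjusted p = 0.105), and Alas2 by -1.15 (adjusted p = 0.225) and -1.96 (adjusted p = 0.0921). For both genes all HSC + TBI rats lay below all control rats. The summed signal of the 4 was 2032 to 4983 in control rats, 1341 to 2732 in TBI rats and 1054 to 1850 in HSC + TBI rats. Hepatocyte markers, led by Tf and Fgb, were above background on all arrays for 10 of 10 genes, with 0 called in each comparison.

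**Figure D4:**
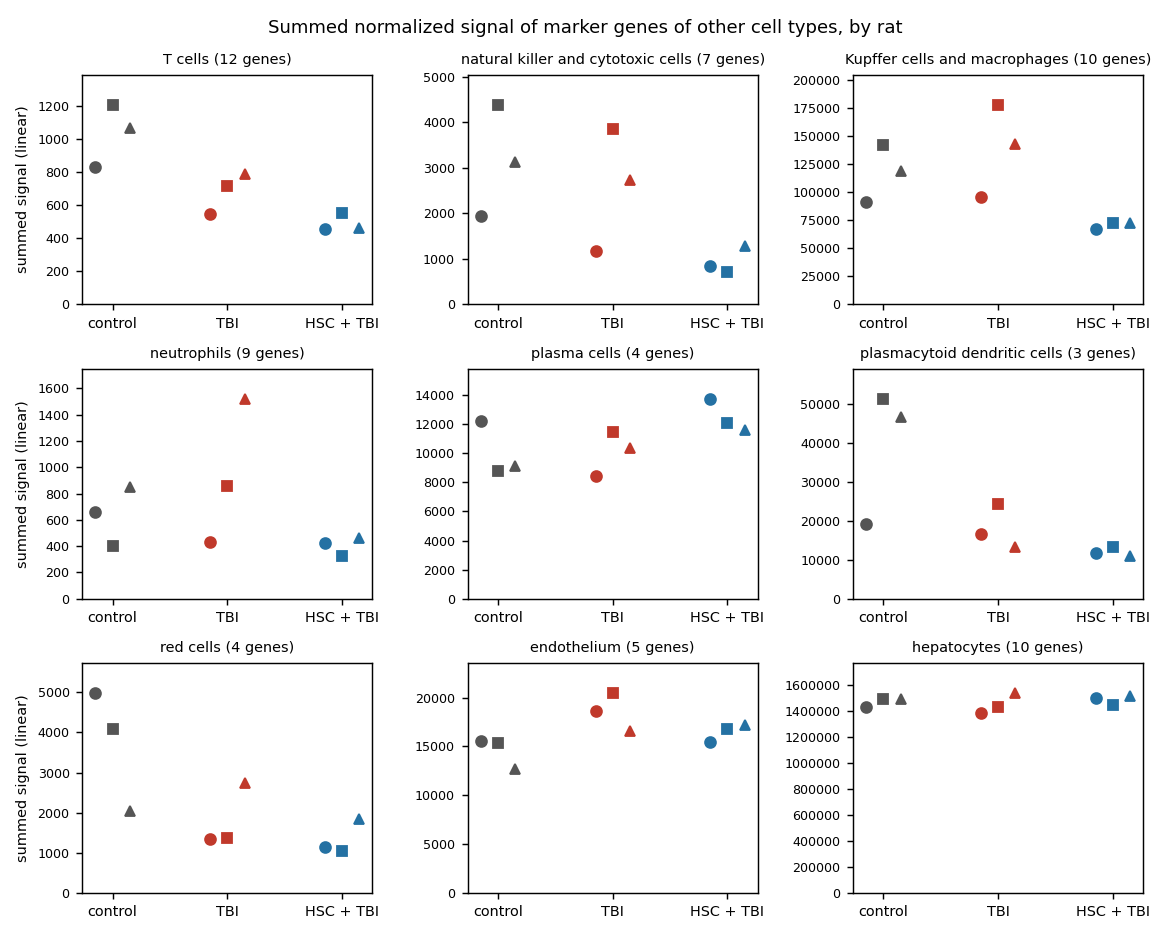
Summed normalized signal (linear scale, from 0) of the matched marker genes of 9 other cell types in each rat, by group; each panel has its own scale, and symbols are rats 1 to 3 of a group. T cell markers sum to 834 to 1210 in control rats and to at most 791 in irradiated rats, while the sums of the 10 hepatocyte markers overlap between the groups. Sdc1 makes up most of the plasma cell sum.

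The mean profile of the 4 genes, each centred over the 9 rats, was 1.05, 0.82 and 0.47 in control rats, -0.70, 0.06 and 0.42 in TBI rats, and -0.64, -0.66 and -0.82 in HSC + TBI rats. Control rats were highest, which the filter partly set, since Cd79b and Blnk passed it through the control group alone. The TBI rats were spread widely, and TBI 1 lay beside the HSC + TBI rats. Of 8528 other genes above background on all 9 arrays, the 5 with the most similar profile were Pacs1 (Pearson's r 0.99), Cnppd1 (0.95), Arvcf (0.95), Cdk19 (0.95) and Ptma (0.94). These r are descriptions over 9 arrays that share their groups, picked as the highest of many. Their differences were smaller than those of Cd79b, at -0.87 to -0.29 for HSC + TBI against control.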

How the data were processed

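Liver RNA of 9 rats (3 per group, from the sample labels) was measured on one-colour arrays. The authors read spot intensity with Agilent Feature Extraction (10.7.3.1 per the file headers) and deposited quantile-normalized log2 values, used here as an alternative. Processed intensities, with 1 as the floor, were converted to log2 and quantile normalized over the 9 arrays (limma 3.58.1, R 4.3.3), spots with an outlier flag (84 to 115 per array) were left out, and spots were averaged over 41012 probes. A probe was above background on an array where over 0.5 of its spots were flagged so. The 3 group means were fitted by lmFit and eBayes, with Benjamini-Hochberg adjustment over 25369 probes. The brightest probe stood for a gene. Names came by RefSeq accession from GRCr8 (16968 probes), without coordinates, since the array annotation uses another build. Named genes were the 7 genes, list members called in any comparison, the 2 brightest of each list, and the 5 closest profiles. The kinases and adaptors, Cr2, Cxcr4, Ccr7, Nfkb2, Cd3e, Ahsp, Slc4a1 and Mzb1 were named after their values were seen. The genes and lists were chosen with earlier results of these data known. Some single genes of the lists are not reported here. The fit was tested on simulated data. Alternatives were other scalings, background corrections, filters, tests, blocks and rats left out. The number of arrays limits the precision.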

Additional observations from a re-analysis of the deposited data

How the results depend on the processing

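Each count of called genes was recomputed under 22 alternatives, and stayed within 1.5 times its value in 18, 11 and 19 of them for the B cell genes (TBI against control, HSC + TBI against control, HSC + TBI against TBI) and in 19, 15 and 18 for the other B lineage genes. Normexp background correction (offset 50) left 0 and 1 B cell genes against control, where 2.63% and 1.94% of all tested probes were called. No filter on dim probes left 1 for HSC + TBI against control, where 1.46% of all tested probes were called. When testing was limited to probes above background everywhere, where Cd79b was not tested, 0 and 1 B cell genes and 2 other B lineage genes (HSC + TBI) were called against control. Of all probes tested there, 6.42% and 3.15% were called. The methods' t-test with unadjusted p called 8 other B lineage genes for HSC + TBI against control, and 2 B cell and 5 other B lineage genes for HSC + TBI against TBI, where it called 8.13% and 5.36% of all tested probes. With adjusted p it called 0 and 0 B cell genes and 1 and 0 other B lineage genes against control, and 0.572% and 0.398% of all tested probes. The slide as a random block (correlation -0.33) called 9, 9 and 11 other B lineage genes and 2 B cell genes in HSC + TBI against TBI, and 17.8%, 10.2% and 8.87% of all tested probes. The cause was not tested. Control rats shared a slide and so did TBI rats, so this block cannot separate slide from group for them and is no sound check.

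With 1 rat left out, B cell genes called ranged from 1 to 2, 1 to 2 and 0 to 1 over the 3 comparisons, and other B lineage genes from 2 to 5, 2 to 6 and 0 to 10. The share of all tested probes called ranged from 3.56% to 9.87%, 1.30% to 3.86% and 0.186% to 3.96%. Without TBI 1, the B cell genes numbered 2 for TBI against control and 1 for HSC + TBI against TBI, and the other B lineage genes 5 and 10, where 6.91% and 3.96% of all tested probes were called. Without control 2, control 3 or HSC + TBI 1, 2 other B lineage genes were called for HSC + TBI against control, and without TBI 2, 1 for HSC + TBI against TBI. In that order, 1.51%, 1.36%, 1.30% and 0.186% of all tested probes were called. Signs turned for the second Cd22 probe in HSC + TBI against control (-0.0019 with normexp, and -0.19 to 0.24 with 1 rat left out, negative without control 1 or HSC + TBI 1 at -0.028), and for Blnk with 1 rat left out, in TBI against control (-1.08 to 0.16, positive without TBI 1) and HSC + TBI against TBI (-1.11 to 0.13, positive without TBI 3).

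The deviations of rats from their group means had correlations of -0.14 to 0.19 over 9 pairs with the same replicate number. Over 18 pairs of other numbers they were -0.12 to 0.14. Between control and TBI the pairs of the same number (0.19, 0.12 and 0.10) were above all others (highest 0.02). Between TBI and HSC + TBI they were -0.14, -0.02 and -0.03. Whether the replicate number links rats was not tested. With the replicate block, the B cell genes called were 1, 1 and 0 and the other B lineage genes 2, 3 and 0. Of all tested probes, 6.20%, 3.08% and 0.382% were called with this block. Signals near background limit Cd79b and Blnk most.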
